A study of Mus musculus with 6 samples.

Results

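The genes described here are 10 that encode the folding machinery of the endoplasmic reticulum (ER) and the transcription factor *Xbp1* with targets of XBP1 and ATF6. They were taken by symbol from a table of 20066 genes, and all 10 were listed. RNA had been sequenced from cardiomyocytes (CMs) of C57BL/6 mice at P0-1, the first days after birth, after 96 h of culture with the solvent dimethylsulfoxide (DMSO) or with cell-permeable α-ketoglutarate (αKG). The labels name 3 libraries per group and 100 µM αKG, whereas the study's methods give another concentration for an octyl ester of αKG. The cells were a primary culture and not a purified line. For neonatal CMs, the study's methods describe a sample as a single isolation from pooled hearts, while the labels do not tie the libraries to isolations. The p-values measure the spread between these libraries, and to what extent that is technical is not known.

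Proteins bound for secretion or for membranes fold inside the ER, where BiP, the product of *Hspa5*, binds unfolded chains, calnexin and calreticulin hold glycoproteins, and protein disulfide isomerases form and rearrange disulfide bonds. When unfolded protein accumulates, the sensors IRE1, ATF6 and PERK start the unfolded protein response (UPR). IRE1 splices *Xbp1* mRNA into the form that encodes an active factor, ATF6 is released by proteases in the Golgi, and PERK slows translation and favours ATF4. XBP1 and ATF6 act on chaperone promoters through the ER stress element (ERSE), which is CCAAT, a gap of 9 bases and CCACG. In muscle cells the same chaperones also serve the calcium store, calreticulin and GRP94 among them as calcium-binding proteins.

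The ERSE was searched for on both strands in 32851 RefSeq promoter windows (GRCm38.p6), each from 250 bases before to 50 after a transcription start. Only exact matches were counted, so that copies with a mismatch are not among them. It was present in 39 windows, or 0.119% of all, and in the windows of 5 of the 10 genes, *Hspa5*, *Hsp90b1*, *Calr*, *Canx* and *Pdia6*. These genes are classed as targets of XBP1 and ATF6, so that the matches describe the group and test nothing. The stretches around the matches are shown because the element is what these promoters share. Sequences are written 5′ to 3′ on the strand of the gene, with each ERSE in capitals. In *Hspa5*, capitals also mark TGACGTG, a core of the element bound by XBP1 and ATF6.

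Hspa5, chr2:34771903-34772073 (plus strand): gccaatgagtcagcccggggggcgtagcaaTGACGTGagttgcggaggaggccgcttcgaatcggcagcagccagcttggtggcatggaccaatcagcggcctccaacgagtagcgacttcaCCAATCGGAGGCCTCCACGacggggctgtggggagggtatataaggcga
Hsp90b1, chr10:86705503-86705686 (minus strand): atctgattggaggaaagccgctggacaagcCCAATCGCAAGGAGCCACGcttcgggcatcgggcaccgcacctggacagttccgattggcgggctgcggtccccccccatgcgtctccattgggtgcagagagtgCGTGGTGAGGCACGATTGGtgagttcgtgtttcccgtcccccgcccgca
Calr, chr8:84847045-84847123 (minus strand): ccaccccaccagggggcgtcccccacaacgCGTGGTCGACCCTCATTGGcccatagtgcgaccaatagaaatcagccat
Canx, chr11:50325770-50325848 (minus strand): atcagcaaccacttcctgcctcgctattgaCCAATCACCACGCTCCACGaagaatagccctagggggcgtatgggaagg
Pdia6, chr12:17266461-17266539 (plus strand): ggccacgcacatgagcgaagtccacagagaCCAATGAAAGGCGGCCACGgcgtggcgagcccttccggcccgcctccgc

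The element lay at bases -65 to -47 from the start of *Hspa5*, -145 to -127 in *Canx* and -98 to -80 in *Pdia6*, in each case in the direction of the gene. In *Calr* it lay at -162 to -144 in the opposite direction. *Hsp90b1* held a pair of elements, at -212 to -194 in the direction of the gene and at -107 to -89 in the opposite one. The motif CCACG, which 32.8% of all windows held, was in the windows of 8 of the 10 genes, the ones above included. *Dnajb9*, *Sdf2l1* and *Pdia4* held it without the rest of the element, and *Pdia3* and *Xbp1* did not hold it. ERSE-II, which is ATTGG, a gap of 1 base and CCACG, was in 0.0365% of windows and in 0 of these 10, and TGACGTG was in 2.01% of windows and in *Hspa5* of the 10.

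**Figure D1:**
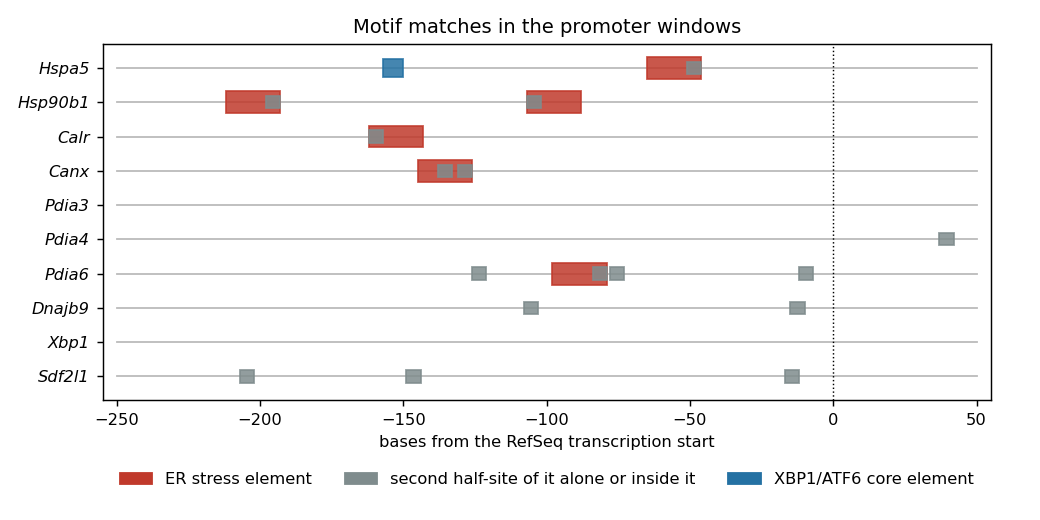
Positions of motif matches in the promoter windows of the 10 genes, in bases from the RefSeq transcription start (dotted line). Red boxes are the ER stress element, grey boxes CCACG alone or inside it, and the blue box TGACGTG. 5 of the 10 windows hold a red box, and *Pdia3* and *Xbp1* hold no box.

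The level of each gene is given in normalized counts, which are rounded read counts after division by the size factor of each library. Estimated depth was 3724762 to 4429134 reads in genes per library. The libraries did not group by treatment alone. On the log2 scale and over genes whose mean was at least 10, αKG replicate 3 correlated at 0.9463 and 0.9499 with the other αKG libraries and at 0.9752 to 0.9821 with the DMSO libraries. The 10 genes, the lists and the named genes that change sides of the threshold are therefore given with and without it. It was singled out from these same values as the αKG library most like DMSO. Leaving it out thus favours larger differences and more calls, so that passing without it is no independent evidence of a change. All 12 cardiomyocyte markers were detected, and their summed values were 78087 to 80771 in DMSO and 111627, 114606 and 82781 in αKG replicates 1 to 3, although the median log2 difference from DMSO over the 12 was smaller, at 0.16, 0.12 and 0.02. All 10 markers of fibroblasts, secretory cells that are rich in ER, were also detected, at a sum of 3251 to 3436 in DMSO and of 7268, 7094 and 3314 in αKG (medians 0.88, 0.83 and 0.04). The 10 endothelial markers summed to 1776 to 1920 in DMSO and to 977, 853 and 1166 in αKG (medians -1.04, -1.15 and -0.61), and the 10 epicardial markers to 483 to 519 and to 1279, 1238 and 456 (medians 2.25, 2.03 and -0.79). The 10 smooth muscle and pericyte markers summed to 3850 to 3939 and to 3705 to 4139 (medians 0.28, 0.22 and -0.02). Of 10 macrophage markers 4 were listed, at a sum of at most 41 in any library. The 12 cell cycle genes summed to 6922, 4907 and 3839 in DMSO and to 8305, 7906 and 9331 in αKG. By the test described next, which 3.78% of all genes passed, 8 of 10 endothelial markers were lower in αKG, 3 of 12 cell cycle genes and 1 of 10 smooth muscle and pericyte markers were higher, and 0 of the cardiomyocyte, fibroblast, epicardial and macrophage markers passed. With αKG replicate 3 left out, 19.3% of all genes were called higher and 17.9% lower. Called higher in that fit were 10 of 10 epicardial, 8 of 10 fibroblast, 5 of 12 cardiomyocyte, 4 of 10 smooth muscle and pericyte and 1 of 10 endothelial markers. Called lower were 8 of 10 endothelial, 1 of 12 cardiomyocyte and 1 of 10 smooth muscle and pericyte markers.

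As a group, the 10 genes took 0.164% to 0.17% of the library total across the DMSO libraries and 0.177%, 0.185% and 0.161% in αKG replicates 1 to 3. Their summed values were 6937, 6717 and 6851 in DMSO and 7381, 7719 and 6636 in αKG. The sums of αKG replicates 1 and 2 were thus above every DMSO library, and that of replicate 3 was below every one. Over all 6 libraries, 0 of the 10 genes passed the threshold, a Benjamini-Hochberg adjusted p under 0.05 in limma over all genes of the table, where 3.78% of all genes did. Without adjustment 1 of 10, *Pdia4*, had a p under 0.05, against 28.1% of all genes. The fitted log2 fold changes of αKG against DMSO lay between -0.31 and 0.21, with a median of 0.08. The median was 0.04 over all genes and -0.03 over the 13409 genes whose mean reached 10. Of the 10 genes, 9 were above 0, beside 10611 of all 20066 genes and 6237 of those 13409. Among these 9, the estimate of *Hspa5* was at -0.01 with equal library totals and at -0.02 with limma-voom or quantile normalization, and that of *Sdf2l1* at -0.06 with quantile normalization. No other scaling, filter, pseudocount or variance model called any of the 10, and limma-voom, run on estimated reads, left 0 called and 2 with an unadjusted p under 0.05.

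The αKG libraries differed from each other in these genes. In αKG replicate 1, 8 of 10 genes were above every DMSO library, where 40.3% of all genes were, and 1 was below, where 34.3% of all genes were. In αKG replicate 2 it was again 8 above, against 39.1% of all genes, and 1 below, against 33.3%. The exceptions in both libraries were *Dnajb9*, which was the one below, and *Xbp1*, which lay inside the DMSO range. In αKG replicate 3, 1 of 10 genes was above every DMSO library, against 27.3% of all genes, and 4 were below, against 27.0%. *Pdia4* was the one above, and *Hspa5*, *Calr*, *Pdia3* and *Sdf2l1* were the ones below. The members with higher values in αKG replicates 1 and 2 moved with the cardiomyocyte, fibroblast and epicardial markers, which were also higher in these libraries than in replicate 3, and against the endothelial markers. By median the smooth muscle and pericyte markers were also higher in αKG replicates 1 and 2 than in replicate 3 (0.28, 0.22 and -0.02). By sum they were not (3854, 3705 and 4139). The median differences over the 10 genes were 0.12, 0.17 and -0.05 in αKG replicates 1 to 3. The part of cell composition in the values was not tested, and in bulk RNA more cells of a type and more RNA per cell cannot be told apart.

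**Figure D2:**
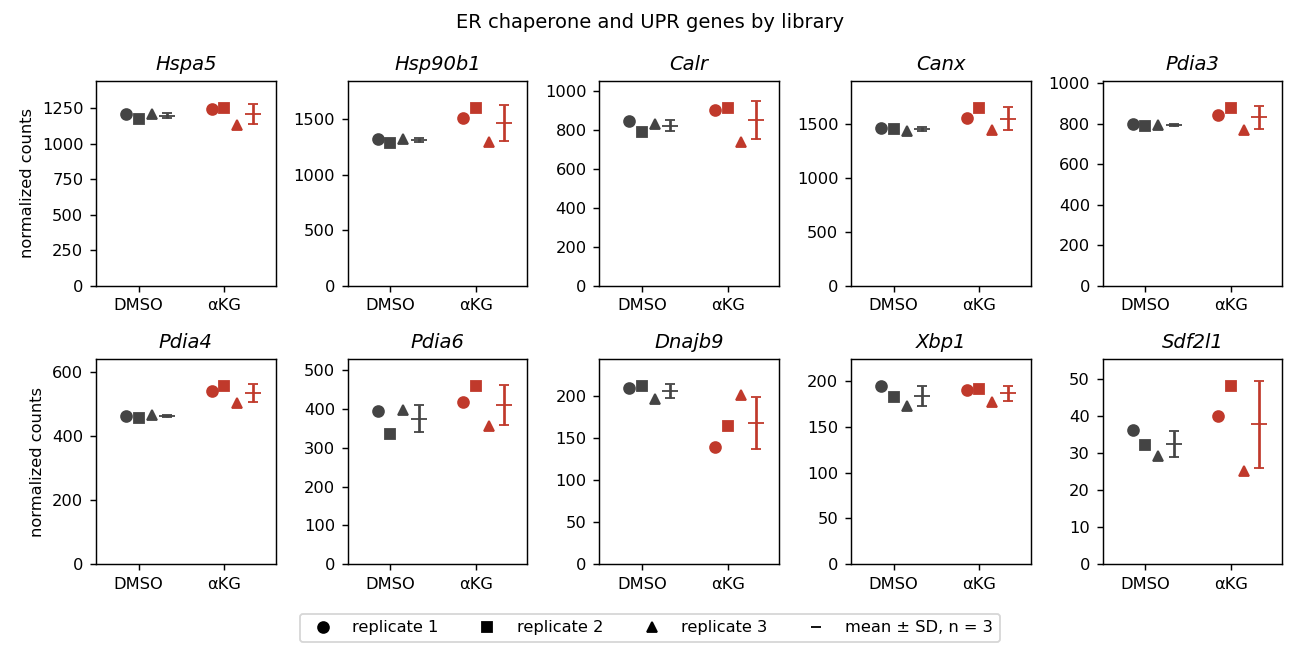
Normalized counts of the 10 genes in the 3 DMSO (grey) and 3 αKG (red) libraries, with a symbol per replicate number and the mean ± SD beside them; each vertical axis starts at 0 and has its own range. The αKG triangles (replicate 3) lie inside or below the DMSO range in 9 of 10 panels, whereas *Pdia4* is higher in all 3 αKG libraries and *Dnajb9* is lower in αKG replicates 1 and 2.

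Among the general chaperones of the ER lumen, *Hspa5* (ENSMUSG00000026864, GRCm38 chromosome 2, 34771970 to 34777547), which encodes BiP, the most used readout of the UPR, had 1209, 1177 and 1210 normalized counts across the DMSO libraries against 1245, 1254 and 1129 across the αKG libraries. Its αKG libraries lay on both sides of the DMSO range. The log2 fold change was 0.01 ± 0.06 (SE, n = 3 each; limma adjusted p = 0.922), with a 95% interval of -0.13 to 0.15. It was 0.06 ± 0.03 without αKG replicate 3 (limma adjusted p = 0.22), which still did not pass.

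*Hsp90b1* (ENSMUSG00000020048, chromosome 10, 86690209 to 86705509) encodes GRP94, the HSP90 of the ER, which folds a small set of clients such as integrins and Toll-like receptors. It had 1321, 1289 and 1323 normalized counts across the DMSO libraries against 1506, 1602 and 1290 across the αKG libraries. The first 2 αKG libraries were above all DMSO libraries, and the last was inside the DMSO range. The log2 fold change was 0.16 ± 0.08 (limma adjusted p = 0.231), with an interval of -0.02 to 0.33, and it was 0.24 ± 0.04 and passed without αKG replicate 3 (limma adjusted p = 0.00574). Its exons share bases with 1810014B01Rik on the opposite strand and Gm15344 on the same strand, with mean values of 54.3 and 8. The authors left out reads that hit several genes, so that reads from the bases shared with Gm15344 are missing from its count, and those shared with 1810014B01Rik only if strand was not used, which is not stated.

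The lectin chaperones bind glycoproteins with trimmed sugar chains and pass them to PDIA3. *Canx* (ENSMUSG00000020368, chromosome 11, 50293961 to 50325673), for the membrane-bound calnexin, had 1463, 1453 and 1432 normalized counts across the DMSO libraries against 1552, 1647 and 1441 across the αKG libraries. *Calr* (ENSMUSG00000003814, chromosome 8, 84841850 to 84846934), for the soluble calreticulin, had 847, 791 and 833 in DMSO and 905, 916 and 741 in αKG. Both were above the DMSO libraries in αKG replicates 1 and 2, while in replicate 3 *Canx* was inside the DMSO range and *Calr* below it. The fold change on the log2 scale was 0.09 ± 0.06 for *Canx* (limma adjusted p = 0.358) and, for *Calr*, 0.05 ± 0.09 (limma adjusted p = 0.758). Without αKG replicate 3 both passed, at 0.14 ± 0.04 (limma adjusted p = 0.0305) and 0.15 ± 0.04 (limma adjusted p = 0.0457). A processed pseudogene of *Calr* was listed at 0 to 3 normalized counts.

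Of the 3 protein disulfide isomerases, *Pdia4* was the gene whose groups did not overlap. *Pdia4* (ENSMUSG00000025823, chromosome 6, 47796141 to 47813430), which encodes ERp72, an isomerase with more than the usual number of thioredoxin-like domains, had 464, 458 and 465 normalized counts across the DMSO libraries against 542, 557 and 505 across the αKG libraries. All 3 αKG libraries were above the DMSO range, as in 13.7% of all genes, and it was the only one of the 10 genes of which this held. Its log2 fold change was 0.21 ± 0.07, with a 95% interval of 0.04 to 0.37 and a limma adjusted p of 0.113. Without αKG replicate 3 it was 0.25 ± 0.04 and passed (limma adjusted p = 0.00779).

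*Pdia3* (ENSMUSG00000027248, chromosome 2, 121413775 to 121438687), for ERp57, the isomerase that works with calnexin and calreticulin, had 798, 787 and 792 normalized counts across the DMSO libraries against 843, 879 and 771 across the αKG libraries. *Pdia6* (ENSMUSG00000020571, chromosome 12, 17266545 to 17284770), for P5, which also attenuates the sensor IRE1, had 394, 335 and 397 in DMSO and 418, 460 and 356 in αKG. For *Pdia3*, αKG replicate 3 was below every DMSO library. For *Pdia6* it was inside the DMSO range, which was wide because of DMSO replicate 2. The log2 fold changes were 0.07 ± 0.07 for *Pdia3* (limma adjusted p = 0.556) and 0.13 ± 0.11 for *Pdia6* (limma adjusted p = 0.479). Neither passed without αKG replicate 3 (0.12 ± 0.04, limma adjusted p = 0.0576, and 0.23 ± 0.09, limma adjusted p = 0.0951). The ends of both genes share exonic bases with a gene on the opposite strand, *Catsper2* (mean value 50.2) and *Atp6v1c2* (mean value 1.5), and it is not stated that the counting used strand.

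*Dnajb9* differed from the other genes in direction. *Dnajb9* (ENSMUSG00000014905, chromosome 12, 44205559 to 44210326) encodes ERdj4, a DNAJ co-chaperone of BiP that is induced through XBP1 and holds IRE1 inactive with BiP. It had 210, 212 and 197 normalized counts across the DMSO libraries against 139, 164 and 201 across the αKG libraries. αKG replicates 1 and 2 were below all DMSO libraries, and replicate 3 was inside the DMSO range. The log2 fold change was -0.31 ± 0.14 (limma adjusted p = 0.179), with a 95% interval from -0.62 to 0.00, and without αKG replicate 3 it was -0.45 ± 0.09 and passed (limma adjusted p = 0.0127).

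*Xbp1* (ENSMUSG00000020484, chromosome 11, 5520659 to 5525893), the factor that IRE1 activates by splicing, had 195, 183 and 173 normalized counts across the DMSO libraries against 191, 192 and 177 across the αKG libraries. All αKG values were inside the DMSO range. The log2 fold change was 0.02 ± 0.10 (limma adjusted p = 0.898), with a 95% interval of -0.21 to 0.26, and 0.06 ± 0.08 without αKG replicate 3 (limma adjusted p = 0.569). A count per gene adds the spliced and the unspliced form, so that the activity of IRE1 was not measured.

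*Sdf2l1* (ENSMUSG00000022769, chromosome 16, 17130138 to 17132383), whose product forms a complex with DNAJ co-chaperones of BiP, had the lowest level, with 36, 32 and 29 normalized counts across the DMSO libraries against 40, 48 and 25 across the αKG libraries. The αKG values lay on both sides of the DMSO range. At 27 to 43 estimated reads per library, counting alone gives a coefficient of variation of 16.9%, and the interval of its log2 fold change, -0.44 to 0.78 around 0.17 ± 0.27 (limma adjusted p = 0.703), leaves room for a change in either direction. Without αKG replicate 3 it was 0.43 ± 0.18 (limma adjusted p = 0.0997).

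**Figure D3:**
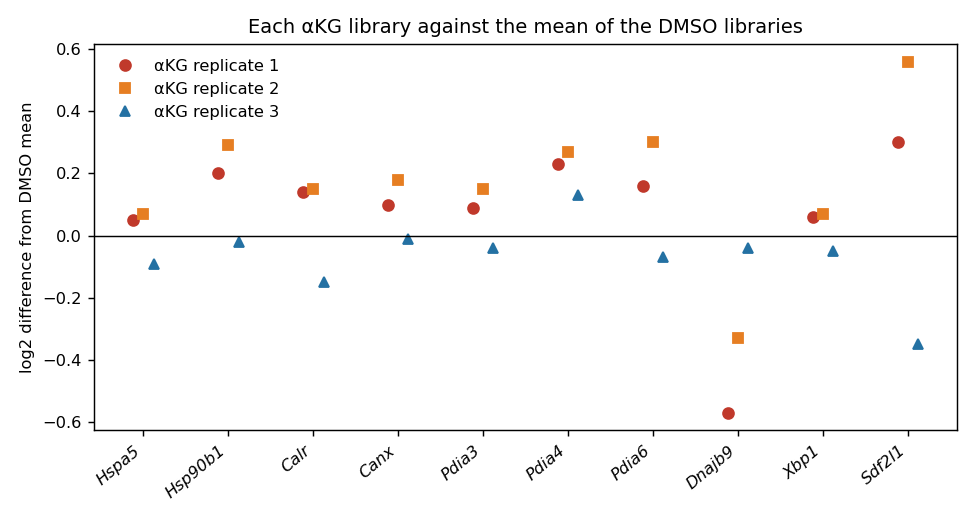
Log2 difference of each αKG library from the mean of the DMSO libraries, on log2(normalized count + 1), for the 10 genes, with a symbol and colour per αKG replicate. Replicates 1 and 2 are above 0 for every gene but *Dnajb9*, and replicate 3 is below 0 for every gene but *Pdia4*, at -0.35 to -0.01 against 0.13.

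Without αKG replicate 3, which leaves 2 αKG libraries against 3 DMSO libraries, 5 of the 10 genes passed. That library was the αKG library most like DMSO, so that leaving it out favours passing. *Hsp90b1*, *Calr*, *Canx* and *Pdia4* were higher in αKG, or 4 of 10 where 19.3% of all genes were called higher, and *Dnajb9* was lower, or 1 of 10 where 17.9% were called lower. The largest of these log2 fold changes, of *Dnajb9*, was -0.45, and those of the called chaperones were 0.14 to 0.25. The coefficient of variation over the αKG libraries was above that of counting alone in 9 of the 10 genes, *Xbp1* being the exception. For *Hsp90b1* the coefficient of variation was 10.9% over the αKG libraries and 1.46% over the DMSO libraries, with 2.68% from counting alone. For *Calr* these values were 11.5%, 3.54% and 3.44%, and for *Dnajb9* 18.6%, 3.95% and 7.24%. For *Xbp1* they were 4.49%, 6.00% and 7.32%, so that neither group varied by more than counting.

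**Figure D4:**
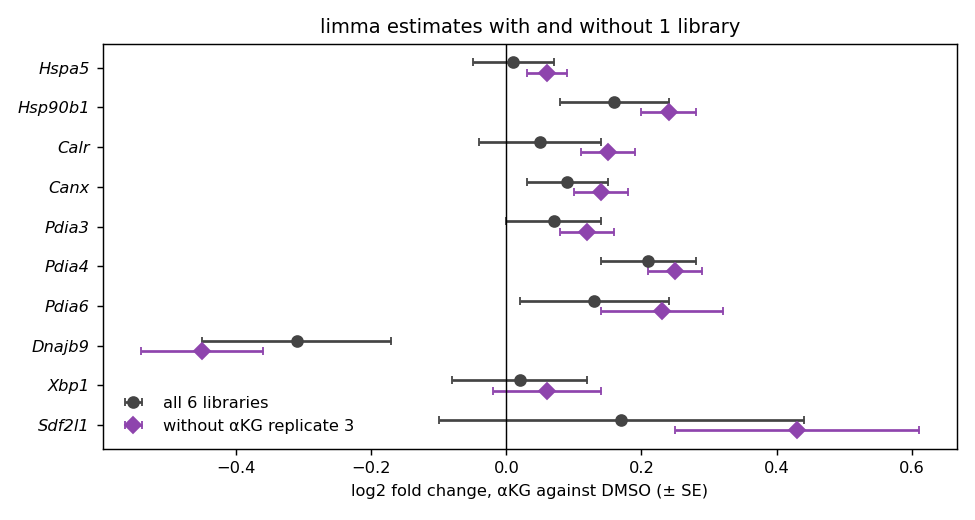
Log2 fold changes of αKG against DMSO ± SE from limma, for the 10 genes, with all 6 libraries (grey circles) and without αKG replicate 3 (purple diamonds). Every estimate lies farther from 0 without that library, which was the αKG library most like DMSO, so that leaving it out favours this. *Dnajb9* is the one gene with negative estimates.

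Per kilobase of exon, the order of the levels was the same in both groups. In DMSO the mean normalized count per kilobase was 325 for *Hsp90b1*, 309 for *Canx*, 286 for *Calr*, 283 for *Hspa5*, 252 for *Pdia3*, 193 for *Pdia4*, 100.0 for *Pdia6*, 80.9 for *Dnajb9*, 56.5 for *Xbp1* and 29.2 for *Sdf2l1*. In αKG these levels per kilobase were 364, 330, 297, 286, 265, 223, 110, 65.9, 57.5 and 34.0 in the same order. The neighbours *Calr* and *Hspa5* overlapped over the DMSO libraries (275 to 294 against 278 to 286), and no other pair of neighbours did.

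The rest of the pathway was read from 10 lists with 128 genes, all of them in the table. The lists were chosen with earlier results of these data known. Of the 128, 3 passed the threshold, each higher in αKG, and 0 were lower, beside the 3.78% of all genes. The median log2 fold change over the 128 was 0.00. Each of the 3 calls was lost when DMSO replicates 2 and 3, which were close to counting noise of each other, were averaged (limma adjusted p = 0.189 for *Qsox1*, 0.17 for *Vldlr* and 0.189 for *Psat1*), and when any library but αKG replicate 3 was left out. The groups did not overlap in 16 genes that were higher and in 22 that were lower in αKG, against 13.7% and 14.6% of all genes. With αKG replicate 3 left out, 32 of the 128 were called higher and 17 lower, beside 19.3% and 17.9% of all genes. The same shares stand beside the counts of that fit for each list below.

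Co-chaperones and other folding factors of BiP centred on -0.01 (median log2 fold change), and 0 of 14 were called. Their highest-level genes, *Dnajc10*, a reductase that assists degradation, and *Sec63*, which couples BiP to the translocon, had 0.15 ± 0.08 (limma adjusted p = 0.252) and 0.01 ± 0.07 (limma adjusted p = 0.919). The fit without αKG replicate 3 called 3 of the 14 higher and 1 lower, among them *Dnajc10* at 0.23 (limma adjusted p = 0.0151) and *Sdf2* at -0.49 (limma adjusted p = 0.0185). *Sdf2*, the paralog of *Sdf2l1* that is not induced by ER stress, had 185, 194 and 185 normalized counts across the DMSO libraries against 118, 151 and 159 across the αKG libraries, so that its groups did not overlap, or -0.41 ± 0.13 on the log2 scale (limma adjusted p = 0.0957). *Sdf2* was named after its values were seen, as were *Erp44*, *Ero1l*, *Edem1*, *Nploc4*, *Herpud1*, *Eif2ak3*, *Trib3* and *Ddit3* below.

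Of 15 ER oxidoreductases, 1 passed. It was *Qsox1*, a sulfhydryl oxidase of the Golgi and the secretory route, with 228, 260 and 280 normalized counts across the DMSO libraries against 616, 605 and 344 across the αKG libraries, or 0.98 ± 0.20 on the log2 scale (limma adjusted p = 0.0375). *P4hb* and *Tmx4*, the disulfide isomerases with the highest values, were at 0.04 ± 0.07 (limma adjusted p = 0.72) and 0.00 ± 0.08. *Ero1l*, the oxidase that recharges isomerases and is also a target of hypoxia signalling, had 178, 177 and 179 normalized counts across the DMSO libraries against 320, 349 and 181 across the αKG libraries, or 0.61 ± 0.21 (limma adjusted p = 0.107). *Erp44*, which retains ERO1 in the early secretory pathway, had 411, 386 and 421 against 317, 349 and 352, or -0.26 ± 0.08 (limma adjusted p = 0.0963). Leaving out αKG replicate 3 gave 4 of 15 called higher and 2 lower, with *Qsox1* at 1.26 (limma adjusted p = 0.000559), *Ero1l* at 0.91 (limma adjusted p = 0.000592) and *Erp44* at -0.29 (limma adjusted p = 0.0197).

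Glycoprotein quality control, with a median of 0.10, had 0 of 12 genes called. *Mlec*, an ER lectin, and *Uggt1*, the glucosyltransferase that returns misfolded glycoproteins to calnexin, were at 0.09 ± 0.08 (limma adjusted p = 0.445) and 0.18 ± 0.08 (limma adjusted p = 0.172). *Edem1*, which extracts failed glycoproteins for degradation and is a target of XBP1, had 139, 162 and 160 normalized counts across the DMSO libraries against 243, 243 and 154 across the αKG libraries (0.44 ± 0.18, limma adjusted p = 0.143). In the fit without αKG replicate 3, 5 of 12 were called higher and 1 lower, with *Edem1* at 0.66 (limma adjusted p = 0.00306), *Uggt1* at 0.24 (limma adjusted p = 0.024) and *Mlec* at 0.18 (limma adjusted p = 0.0151).

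ER-associated degradation, the removal of failed proteins to the proteasome, had a median of -0.10, with 13 of 16 genes below 0 and 0 called. Below 0 were also 9455 of all 20066 genes and 7172 of the 13409 whose mean reached 10. The groups did not overlap in 6 of the 16, all lower in αKG, where 14.6% of all genes were lower without overlap. Other lists also departed from the shares of all genes. Of the 15 ER oxidoreductases, 5 were higher without overlap, against 13.7% of all genes, and 2 were lower. Of the 12 cytosolic heat shock genes, 4 were lower without overlap and 1 was higher. *Sel1l*, the scaffold of the ubiquitin ligase HRD1, was at 0.04 ± 0.09 (limma adjusted p = 0.767). *Herpud1*, a UPR target that recruits the ligase, had 316, 319 and 329 normalized counts across the DMSO libraries against 286, 290 and 258 across the αKG libraries, or -0.21 ± 0.09 (limma adjusted p = 0.158). *Nploc4*, a cofactor of the segregase p97, had 761, 702 and 740 against 599, 557 and 659, or -0.28 ± 0.08 (limma adjusted p = 0.0746). In both of these genes αKG replicate 3 was also below all DMSO libraries. Leaving it out, 1 of 16 was called higher and 4 lower, with *Nploc4* at -0.34 (limma adjusted p = 0.00556), *Sel1l* at 0.14 (limma adjusted p = 0.0492) and *Herpud1*, which did not pass, at -0.16 (limma adjusted p = 0.0624).

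The translocon and signal peptidase list, with a median of -0.02, had 0 of 19 genes called, and its highest-level genes *Ssr3* and *Ssr1*, subunits of the translocon-associated complex, were at -0.02 ± 0.06 and 0.13 ± 0.07 (limma adjusted p = 0.873 and 0.267). Of 10 UPR sensors and their proteases 0 were called, with a median of -0.01. *Atf6* had 1009, 986 and 1024 normalized counts across the DMSO libraries against 1000, 1044 and 966 across the αKG libraries (limma adjusted p = 0.969), and its relative *Creb3l2* was at 0.01 ± 0.07 (limma adjusted p = 0.944). *Eif2ak3*, which encodes PERK, had 196, 194 and 202 against 292, 264 and 192, or 0.31 ± 0.15 (limma adjusted p = 0.196), and passed at 0.49 ± 0.07 without αKG replicate 3 (limma adjusted p = 0.00383). That fit called 3 of 19 translocon genes higher and 1 lower, and 2 of 10 sensor genes higher and 2 lower. Of all genes it called 19.3% higher and 17.9% lower.

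Targets of PERK and ATF4 had a median of 0.59 on the log2 scale, and 2 of 12 were called, each higher in αKG, against 3.78% of all genes called. Without αKG replicate 3, 8 of 12 were called, each higher in αKG, where 19.3% of all genes were called higher. Since the list was chosen with earlier results of these data known, these counts describe it and do not test it. *Vldlr*, a lipoprotein receptor, rose by 0.54 ± 0.09 on the log2 scale (limma adjusted p = 0.026), with 1405, 1368 and 1492 normalized counts across the DMSO libraries against 2127, 2320 and 1772 in αKG libraries. *Psat1*, an enzyme of serine synthesis, rose by 0.82 ± 0.17 (limma adjusted p = 0.0377), from 160, 131 and 104 to 243, 257 and 196. As for *Qsox1*, all 3 αKG libraries were above the DMSO libraries. *Atf4* itself was at 0.01 ± 0.11 (limma adjusted p = 0.953). *Trib3*, a pseudokinase induced by ATF4 and CHOP, had 28, 21 and 17 normalized counts across the DMSO libraries against 112, 134 and 22 across the αKG libraries, so that αKG replicate 3 was inside the DMSO range. Its log2 fold change was 1.64 ± 0.57 (limma adjusted p = 0.109), and 2.45 ± 0.23 without that library (limma adjusted p = 0.00108). *Ddit3*, which encodes CHOP, had 85, 106 and 99 against 134, 144 and 86, or 0.30 ± 0.20 (limma adjusted p = 0.35), and 0.52 ± 0.12 without αKG replicate 3 (limma adjusted p = 0.0168). *Vldlr* and *Psat1* were then at 0.64 and 0.94 (limma adjusted p = 0.000831 and 0.0082). The median difference from DMSO over this list was 0.53, 0.78 and -0.10 in αKG replicates 1 to 3, where that over the 10 ER chaperone and UPR genes was 0.12, 0.17 and -0.05. The fibroblast and epicardial medians given above were likewise high in replicates 1 and 2 and not in replicate 3. Their part in the result was not tested, nor was the difference between lists.

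Chaperones of other compartments were read in the same way. Cytosolic heat shock genes had a median of -0.07 and mitochondrial chaperones and proteases one of -0.11, with 0 of 12 and 0 of 10 genes called. *Hsp90ab1*, the cytosolic HSP90, was at 0.02 ± 0.05 (limma adjusted p = 0.846), and *Bag3*, a co-chaperone of selective autophagy in muscle, at -0.33 ± 0.10 (limma adjusted p = 0.0876). *Hspa9*, the mitochondrial HSP70, was at 0.11 ± 0.06 (limma adjusted p = 0.297), and the protease gene *Yme1l1* at -0.18 ± 0.07 (limma adjusted p = 0.121). Collagen chaperones, with 0 of 8 called and a median of 0.10, included *Serpinh1*, which encodes HSP47, at 0.02 ± 0.07 (limma adjusted p = 0.864) and *Fkbp9* at -0.06 ± 0.07 (limma adjusted p = 0.614). When αKG replicate 3 was left out, 1 cytosolic gene was called higher and 3 lower, 2 mitochondrial genes higher and 3 lower, and 3 collagen chaperones higher, with *Bag3* at -0.46 (limma adjusted p = 0.00156), *Hspa9* at 0.16 (limma adjusted p = 0.0167) and *Yme1l1* at -0.21 (limma adjusted p = 0.0147).

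**Figure D5:**
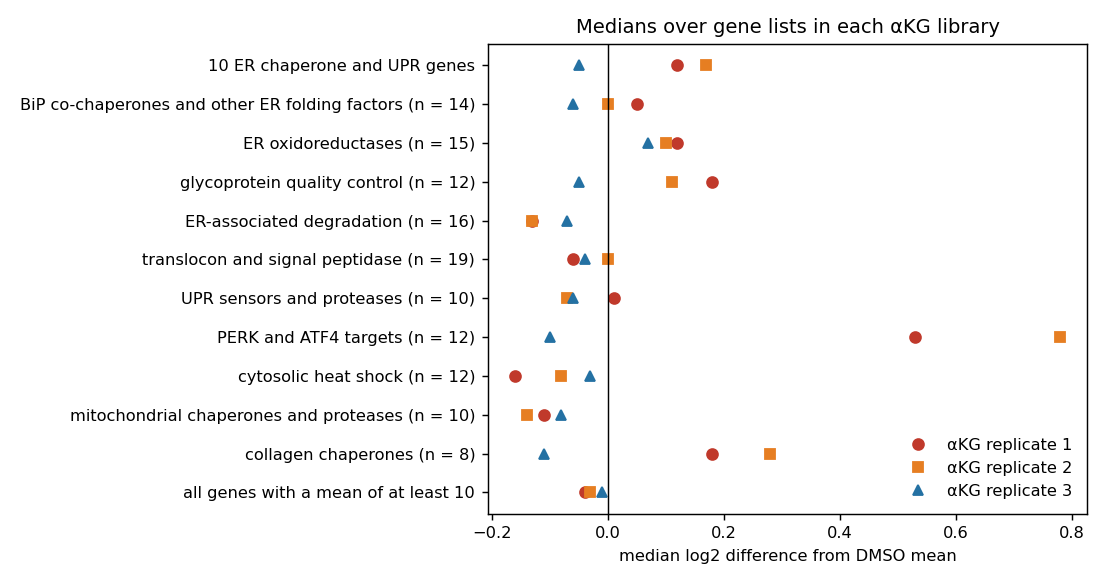
Median log2 difference of each αKG library from the mean of the DMSO libraries over the genes of each list, on log2(normalized count + 1), with all genes of mean at least 10 in the lowest line. The PERK and ATF4 targets reach 0.53 and 0.78 in αKG replicates 1 and 2 and -0.10 in replicate 3. ER-associated degradation, cytosolic heat shock, mitochondrial chaperones and proteases and all genes of mean at least 10 are below 0 in all 3 libraries.

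Genes other than these 10 that hold an ERSE in a promoter window were taken from the sequence alone. Of 32 such genes 17 were in the table, and 0 were called. Of the 17, 12 were above 0, beside 10611 of all 20066 genes and 6237 of the 13409 whose mean reached 10. The median log2 fold change over the 17 was 0.21. Low genes weighed on that median, since 7 of the 17 had no more than 8 normalized counts in any library, and over the other 10, a division made after the values were seen, it was 0.12, with 6 above 0. With αKG replicate 3 left out, 5 of the 17 were called higher and 1 lower, beside 19.3% and 17.9% of all genes. Of the 10, 3 were called higher and 1 lower. The 17 included 4 genes of the lists above, *Dnajc3*, *Creld2*, *Syvn1* and *Derl3*. *Dnajc3*, for the BiP co-chaperone p58IPK, had 422, 477 and 453 normalized counts across the DMSO libraries against 482, 506 and 428 across the αKG libraries (limma adjusted p = 0.659). *Syvn1*, for the ligase HRD1, had 153, 151 and 123 against 130, 131 and 135 (limma adjusted p = 0.618). *Creld2*, a secreted target of the UPR, had 90, 88 and 90 against 73, 95 and 87 (limma adjusted p = 0.752). *Derl3* was at 3 or fewer normalized counts in every library.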

How the data were processed

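RNA of 3 DMSO and 3 αKG cultures was read from one table of the whole series. Per the study's methods and the submitters' processing notes, Trimmomatic 0.39, STAR 2.7.10a (mm10, GRCm38.p5), featureCounts 2.0.3 and DESeq2 1.30.1 were used by the authors for trimming, alignment, counting in exons and normalization, and reads that hit more than 1 gene or region were not counted. The deposited values are treated as a score, because the authors' counts were scaled by size factors and then rounded. Whether strand was used in counting is not given in the sources used here.

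The value of 1 read was estimated from the spacing of low values, 0.9258 to 1.119 over libraries, to obtain estimated reads. Counting error was taken from these reads and covers counting only. Values were tested as log2(value + 1) with limma 3.58.1 (R 4.3.3) over all 20066 genes, with treatment as the only term and a trend of the variance, and p-values were Benjamini-Hochberg adjusted. The pseudocount understates changes of low genes. Of the called genes, 5 had a mean under 3, where rounded values can be identical between replicates. Per 12056 genes with a mean of at least 20, DMSO replicates 2 and 3 differed by a chi-square of 1.02 per gene, near counting noise, against 1.45 and 1.99 for the other DMSO pairs. Over all these genes the chi-square test did not separate replicates 2 and 3 (p = 0.0802). Over the 12 cell cycle genes it came to 11.8 per gene, but that list was chosen with earlier results of these data known. Neither value decides the independence of these libraries. They were kept as separate samples as planned, and averaged in an alternative.

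Exon lengths and overlaps are from GENCODE M21, in which 99% of the genes have the positions of the table, and promoters are from RefSeq, where all 10 genes had 1 window each. Figures were drawn with matplotlib 3.10.9 (Python 3.11.15). The 10 genes and the lists were chosen with earlier results of these data known. Besides them, up to 2 genes with the highest mean and up to 3 called genes per pathway list were named, and marker and cell cycle lists are given as lists only, by sums, medians and counts of calls. One gene that this rule names is not reported here. Protein sequences were not used here.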

Additional observations from a re-analysis of the deposited data

How the results depend on the processing

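The count of called genes was 759 of 20066 with all libraries. It was 346 with a pseudocount of 0.1, 327 with limma-voom on estimated reads, 27 with no trend of the variance, 19 with DMSO replicates 2 and 3 averaged (fewer samples) and 5648 at an unadjusted p under 0.05. It ranged from 0 to 7466 over the fits that each left out 1 library, with 7466 without αKG replicate 3, 0 without αKG replicate 1 or 2, and 152, 3 and 4 without DMSO replicates 1 to 3. The share of called genes that were higher was 74.8%, against 51.8% without αKG replicate 3, 66.3% with equal library totals, and 99.3% without DMSO replicate 1. The number of the 10 ER chaperone and UPR genes called was 0, and was between 0 and 5 when single libraries were left out, 5 being without αKG replicate 3; it was 1 at an unadjusted p under 0.05. Of the 128 other pathway genes 3 were called, 0 to 49 over the fits without 1 library (49 without αKG replicate 3, 0 in each of the others), 1 with limma-voom, 1 with the pseudocount of 0.1, 0 with no trend, 0 with the averaged DMSO libraries and 26 at an unadjusted p under 0.05.

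Both groups use replicate numbers 1 to 3. A replicate block on that number left 46 genes called, with 0 of the 10 and 0 of the 128. Deviations of same-numbered libraries from their group means correlated at -0.074, 0.136 and 0.002. These values cannot tell whether same-numbered libraries share an isolation, because αKG replicate 3 dominated the αKG deviations. Its chi-square per gene was 11.6 and 10.5 against αKG replicates 1 and 2, which differed from each other by 1.59.

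Directions reversed in genes that were not called. After scaling every library to 1 common total, *Hspa5*, *Sec63*, *Atf4* and *Hsp90ab1* were at -0.01 and *Tmx4* and *Creb3l2* at -0.02. With limma-voom, *Hspa5*, *Tmx4* and *Atf4* were at -0.02 and *Sec63*, *Creb3l2*, *Hsp90ab1* and *Serpinh1* at -0.01. With quantile normalization *Hspa5* was at -0.02, *Sdf2l1* at -0.06 and *Hsp90ab1* at -0.06, and with DMSO replicates 2 and 3 averaged *Atf4* was at -0.02. When each library was left out in turn, values spanned -0.02 to 0.06 for *Hspa5*, -0.01 to 0.15 for *Calr*, -0.02 to 0.07 for *Xbp1*, -0.02 to 0.43 for *Sdf2l1*, -0.01 to 0.05 for *Sec63*, -0.05 to 0.08 for *Tmx4*, -0.02 to 0.14 for *Sel1l*, -0.04 to 0.06 for *Creb3l2*, -0.03 to 0.02 for *Atf6*, -0.10 to 0.11 for *Atf4* and -0.01 to 0.08 for *Serpinh1*. The cause was not tested. *Pdia4* and *Dnajb9* kept their directions in all 14 alternatives, at 0.18 to 0.25 and -0.45 to -0.18, with adjusted p of 0.00779 to 0.306 and 0.0127 to 0.424. Depth limits *Sdf2l1* most among the 10 genes.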
